A study of Mus musculus with 6 samples.

Results

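The desmosome genes described here are Dsc1, Dsc2, Dsc3, Dsg1a, Dsg2, Dsg3, Dsp, Jup, Pkp1 and Pkp3, 10 genes read by 15 of the 55681 probes of the array. All probes that carry the symbol of 1 of these genes in the array design were taken. The genes were picked with the difference between the 2 cell populations already known, so that difference is given as a description, without a test. RNA came from the prostates of male FVB/N Tg 11.5kb-GFP mice at 6 days of age, which had received no treatment and which carry GFP under the promoter of s-SHIP, a shorter product of the SHIP1 gene. Cells without the lineage markers Ter119, CD31 and CD45 but with Sca-1 and CD49f (LSC, a basal cell population) were sorted into LSC GFP+ and LSC GFP- cells. Each population was measured in 3 samples, with 1 single-colour array per sample. The labels do not say which animals, or how many, gave each sample, so the spread between samples may in part be technical. The promoter is not limited to epithelium, since vascular smooth muscle cells of these mice also carry GFP, and GFP therefore marks LSC GFP+ cells only together with the other sorting markers.

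Desmosomes are spot-like junctions that fasten neighbouring epithelial cells to each other and anchor their keratin filaments at the cell border. Cadherins of the desmocollin (Dsc) and desmoglein (Dsg) families span the membrane and bind the cadherins of the next cell. Inside the cell, plakoglobin (Jup) and the plakophilins (Pkp) bind the cadherin tails and each other, and desmoplakin (Dsp) connects this plaque to keratins. Basal cells of stratified and glandular epithelia carry many desmosomes, and the mixture of cadherins and plakophilins changes with the layer and the stage of the epithelium.

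LSC GFP+ cells had about 4 times the Dsc3 signal and 3 times the Pkp1 signal of LSC GFP- cells, and a smaller excess of Dsc2, while the plaque genes Jup and Pkp3 overlapped between the populations. Desmogleins split into Dsg2, which was measured on all 6 arrays, and Dsg1a and Dsg3, which were not well above background on any. One gene, Dsc1, had its lower signal in LSC GFP+ cells in each same-numbered pair of samples. Signals are given on the log2 scale relative to each array's own 75th percentile, so that 0 is that percentile and a difference of 1 is a doubling. A value describes 1 probe, and levels of different probes cannot be ranked against each other.

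**Figure D1:**
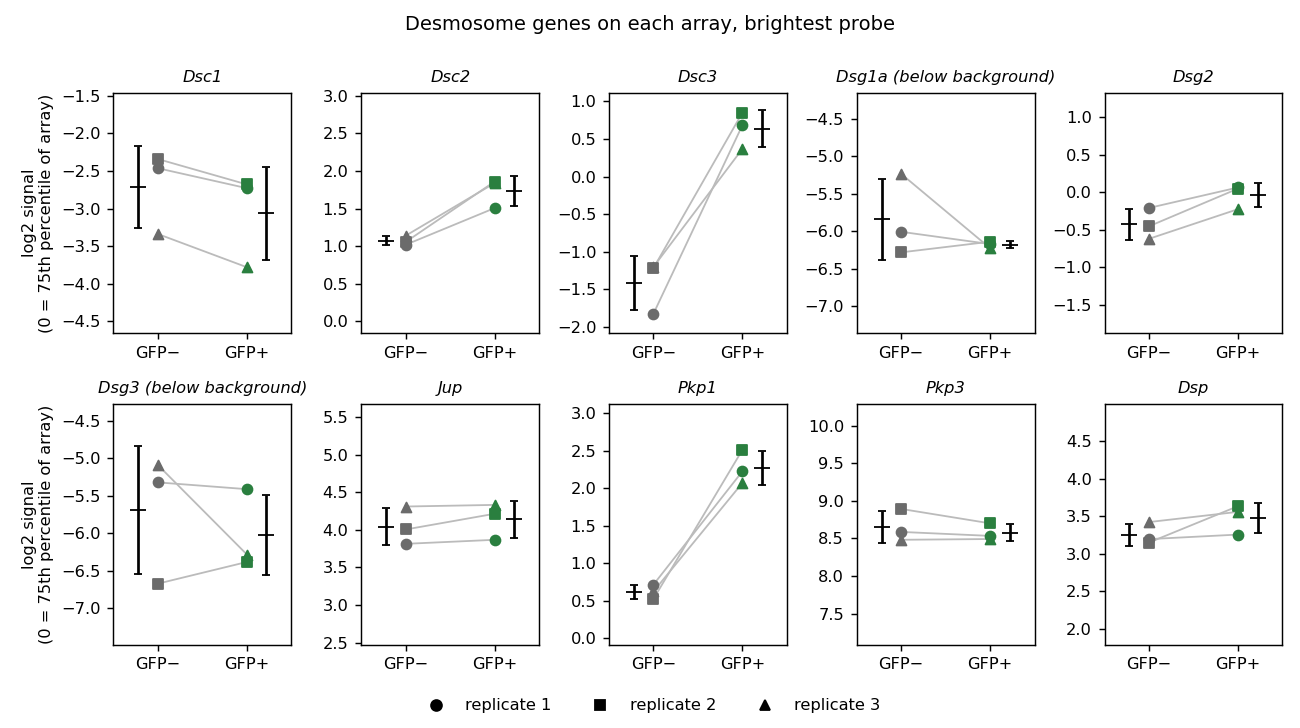
Log2 signal of the brightest probe of each desmosome gene on each array, relative to the 75th percentile of the array. Grey symbols are LSC GFP- and green symbols LSC GFP+ samples, lines join samples with the same replicate number, and black marks with bars are means ± SD (n = 3). All panels span the same number of log2 units. The 3 LSC GFP+ values lie above the 3 LSC GFP- values for Dsc3, Pkp1 and Dsc2, and Dsg1a and Dsg3 are below background throughout.

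The desmocollins and desmogleins, 6 of the 10 genes, lie on chromosome 18. In the RefSeq gene table of GRCm38.p6 they form a cluster of 9 genes together with Dsg1b, Dsg1c and Dsg4, in the order Dsc3, Dsc2, Dsc1, Dsg1c, Dsg1a, Dsg1b, Dsg4, Dsg3, Dsg2. The plaque genes are scattered, with Pkp1 on chromosome 1, Pkp3 on chromosome 7, Jup on chromosome 11 and Dsp on chromosome 13. In the mm9 coordinates of the array design, the Pkp1 probe reads chr1:137768027-137768086 and the Pkp3 probe chr7:148276140-148276199.

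Among the desmocollins, Dsc3, the form typical of basal cells, differed most. Its brighter probe read 0.68, 0.85 and 0.37 in LSC GFP+ replicates 1, 2 and 3 and -1.83, -1.22 and -1.20 in LSC GFP- replicates 1, 2 and 3. The populations did not overlap, and the lowest LSC GFP+ sample was still above the highest LSC GFP- sample by more than the whole spread of either population. The means were 0.64 ± 0.24 and -1.42 ± 0.36 (SD, n = 3 each), a difference of 2.05 ± 0.25 (SE), or 4.14-fold. Of the 37005 probes tested, 13, or 0.0351%, had a difference at least as high. The second Dsc3 probe read -1.11, -1.35 and -1.49 in LSC GFP+ and -3.12, -3.01 and -2.86 in LSC GFP- replicates 1, 2 and 3. The populations did not overlap there either, and the difference was 1.68 ± 0.20 (SE), or 3.21-fold. With normexp background correction the difference at the brighter probe was 1.67. In same-numbered pairs the excess at the brighter probe was 2.51, 2.07 and 1.57, so it was present in each pair.

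In bulk RNA, fewer cells of a type and less RNA per cell cannot be told apart, and the composition of the sorted populations was therefore set beside these values. All 9 basal markers were measured, and in LSC GFP+ cells 7 rose at the threshold used for these lists, an unadjusted limma p under 0.05. Of all probes, 3.38% were higher and 4.53% lower at that threshold. The marker lists were chosen with earlier results of these data known, so their counts are a description. The summed signal of the basal markers was 217.1 to 237.5 times the 75th percentile of the array in LSC GFP+ and 159.9 to 173.5 times in LSC GFP- samples. Smooth muscle markers moved the other way, with 6 of 7 tested and all 6 lower in LSC GFP+ cells. Their sum was 6.22 to 10.0 in LSC GFP+ and 19.6 to 37.7 in LSC GFP- samples, and Lmod1 was below background on all 6 arrays. Of the 9 stromal markers, 5 fell, among them the collagen genes Col1a1, Col1a2 and Col3a1, and Dcn and Fbln1 rose, with sums of 25.2 to 32.1 and 24.8 to 65.8. Pdgfra, also among the 5, was above background in 2 of 3 LSC GFP+ samples and entered the comparison through LSC GFP- cells. Luminal markers were divided, with Hoxb13 higher and Prom1 and Cldn3 lower at that threshold, and the sums of the list, 155.3 to 223.8 and 168.2 to 238.6, overlapped. No endothelial (5 of 7 tested), immune (7 of 8) or neural and glial marker (6 of 9) passed. All 6 tested neural and glial markers were nevertheless lower in LSC GFP+ cells, with a median difference of -0.98. Tubb3, above background on all 6 arrays, had pair differences of -1.765, -1.047 and -1.084. In LSC GFP+ samples the sums of the endothelial, immune and neural lists were 6.33 to 7.12, 25.6 to 31.1 and 82.1 to 134.4. In LSC GFP- samples they were 6.58 to 8.31, 26.0 to 26.8 and 86.8 to 162.9. Each sum came mostly from its brightest probe, that of Kdr, Csf1r or Elavl4, which differed by 0.02, 0.07 and -0.10. Lyz2 was below background throughout. The part of these basal, smooth muscle, stromal and neural signals in the differences of the desmosome genes was not tested.

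**Figure D2:**
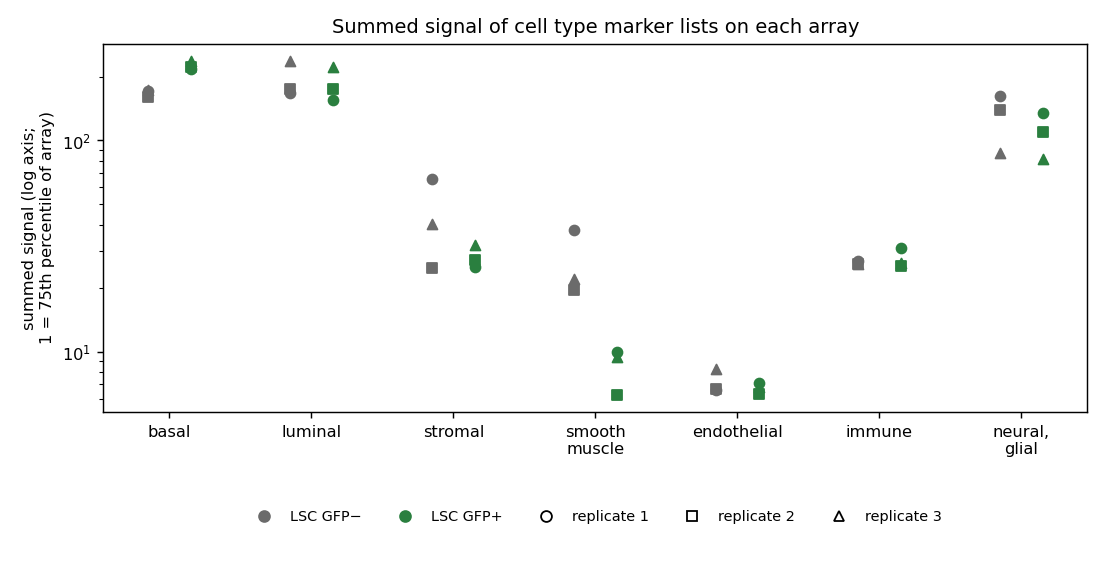
Summed linear signal of each list of cell type markers on each array, in multiples of the 75th percentile of that array, on a log axis. Grey symbols are LSC GFP- and green symbols LSC GFP+ samples, with 1 probe per gene and the shape giving the replicate number. Basal sums are higher in every LSC GFP+ sample and smooth muscle sums lower, while luminal, stromal, endothelial, immune and neural sums overlap.

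The sorting markers themselves were present in both populations. Ly6a, which encodes Sca-1, and Itga6, which encodes CD49f, were well above background on all 6 arrays, with differences of -0.36 ± 0.46 and 0.25 ± 0.22 (SE). Neither passed the threshold, and Gapdh, a housekeeping enzyme, differed by 0.04 ± 0.27.

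Dsc2, the most widely expressed desmocollin, read 1.51, 1.86 and 1.84 in LSC GFP+ and 1.02, 1.05 and 1.14 in LSC GFP- replicates 1, 2 and 3. All LSC GFP+ samples lay above all LSC GFP- samples. The means were 1.74 ± 0.20 and 1.07 ± 0.06 (SD, n = 3 each), a difference of 0.66 ± 0.19 (SE), or 1.59-fold. At least as high a difference was found at 990 probes, or 2.68% of those tested. Dsc1, typical of the upper layers of epidermis, read -2.73, -2.68 and -3.78 in LSC GFP+ and -2.46, -2.34 and -3.34 in LSC GFP- replicates 1, 2 and 3. Replicate 3 was the lowest sample of both populations, and the ranges overlapped. Its difference was -0.35 ± 0.38 (SE), and it was 0.01 without LSC GFP+ replicate 3. Within pairs, LSC GFP+ was lower by a similar amount each time, with differences of -0.27, -0.34 and -0.44. Of the neighbouring desmocollin genes, Dsc3 and Dsc2 thus had their higher signal in LSC GFP+ cells and Dsc1 did not.

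Of the desmogleins, Dsg2, the desmoglein of simple and glandular epithelia, had 3 probes. The brightest read 0.06, 0.05 and -0.23 in LSC GFP+ and -0.21, -0.46 and -0.62 in LSC GFP- replicates 1, 2 and 3, a difference of 0.39 ± 0.20 (SE). LSC GFP+ replicate 3 fell just below LSC GFP- replicate 1, so the ranges overlapped. A second probe read -0.23, -0.08 and -0.15 against -0.57, -0.67 and -0.32, a difference of 0.37 ± 0.19, and there the populations did not overlap. The size of the difference was nearly the same at both probes, and it was positive in all pairs at both. The third Dsg2 probe was below background on all 6 arrays and gives no fold change. Dsg3, a basal desmoglein of stratified epithelium, was below background at both of its probes on all 6 arrays, and so was the single probe of Dsg1a, 1 of the mouse copies of desmoglein 1. For these 2 genes the arrays give no direction, and low expression cannot be told from a probe that binds poorly.

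Pkp1, a plakophilin of stratified epithelium that recruits desmoplakin and clusters desmosomal cadherins, read 2.23, 2.51 and 2.07 in LSC GFP+ and 0.72, 0.53 and 0.63 in LSC GFP- replicates 1, 2 and 3. No LSC GFP- sample came within 1 log2 unit of an LSC GFP+ sample. The means were 2.27 ± 0.22 and 0.62 ± 0.10 (SD, n = 3 each), a difference of 1.65 ± 0.20 (SE), or 3.13-fold. At least as high a difference was found at 50 probes, or 0.135% of those tested. Pkp3, the plakophilin present in most simple and stratified epithelia, read 8.53, 8.70 and 8.49 in LSC GFP+ and 8.59, 8.89 and 8.48 in LSC GFP- replicates 1, 2 and 3. The ranges overlapped, with a difference of -0.08 ± 0.20 (SE) that was 0.04 without LSC GFP- replicate 2. The Pkp1 and Pkp3 differences were thus 1.65 and -0.08 on the same arrays.

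Jup, or plakoglobin, which serves adherens junctions as well as desmosomes, has 1 probe, at chr11:100238038-100238097 (mm9). The sequence of this coding probe and that of the coding Dsp probe below are shown as the stretches of mRNA that these values stand for.
Jup probe: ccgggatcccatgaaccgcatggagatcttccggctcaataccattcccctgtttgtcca
Dsp probe: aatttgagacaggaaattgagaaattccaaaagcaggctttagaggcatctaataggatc
At the Jup probe LSC GFP+ replicates 1, 2 and 3 read 3.87, 4.22 and 4.33 and LSC GFP- replicates 1, 2 and 3 read 3.81, 4.01 and 4.31. The samples followed the replicate number more than the population. The difference was 0.09 ± 0.23 (SE), and it was -0.02 without LSC GFP- replicate 1.

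Dsp, or desmoplakin, the plakin that every desmosome needs for its hold on keratins, has 2 probes that differed from each other. The brighter probe, at chr13:38290121-38290180 (mm9) near the 3′ end of the mRNA, is printed in 10 spots per array. After outlier spots were dropped, 7 to 10 spots remained, with an SD within an array of 0.035 to 0.073 log2 units. This probe read 3.26, 3.63 and 3.56 in LSC GFP+ and 3.19, 3.15 and 3.42 in LSC GFP- replicates 1, 2 and 3, a difference of 0.23 ± 0.20 (SE). With outlier spots kept the difference was 0.16. LSC GFP+ replicate 1 lay within the LSC GFP- range, and the repeat spots that remained scatter less than samples do. The other probe, shown above, spans 1100 bases of chr13:38285480-38286579 with 60 bases and so crosses a splice junction. It read 1.94, 1.36 and 1.26 in LSC GFP+ and 1.03, 1.02 and 0.99 in LSC GFP- replicates 1, 2 and 3, a difference of 0.51 ± 0.23. Here the populations did not overlap, although LSC GFP+ replicate 1 stood apart from the other two. That same sample was the lowest of the LSC GFP+ samples at the brighter probe, so the probes ordered the LSC GFP+ samples differently.

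**Figure D3:**
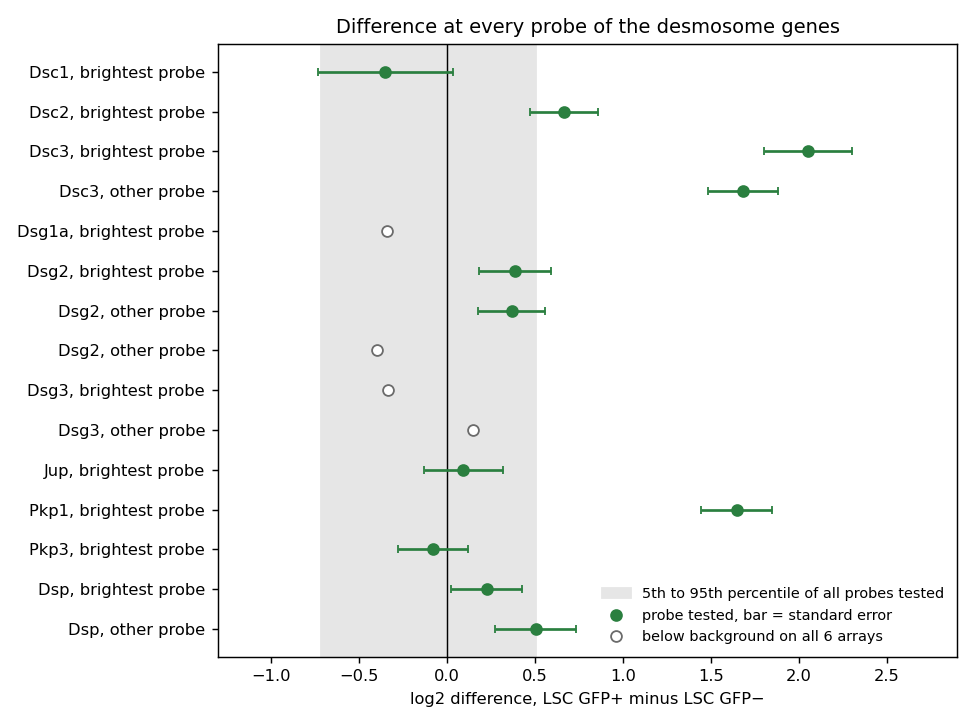
Log2 difference between LSC GFP+ and LSC GFP- cells (mean of 3 minus mean of 3) at each of the 15 probes, with the standard error of the limma fit as bars. Open symbols are the 4 probes below background on all 6 arrays, which have no error, and the grey band holds the 5th to the 95th percentile of the differences of all 37005 probes tested, -0.71 to 0.51. Both Dsc3 probes and the Pkp1 probe lie above 1, and the Dsc2 probe lies above the band.

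RefSeq promoter sequences in the table used here were found for 2 of the 10 genes, Dsp and Jup. Both are shown because these plaque genes were well measured in both populations and their promoters can be compared with each other. They are given on the strand of the gene, end before every annotated start of the gene, and carry GC boxes (GGGCGG on either strand) in capitals.
Dsp promoter, chr13:38151044-38151293 (GRCm38.p6, plus strand): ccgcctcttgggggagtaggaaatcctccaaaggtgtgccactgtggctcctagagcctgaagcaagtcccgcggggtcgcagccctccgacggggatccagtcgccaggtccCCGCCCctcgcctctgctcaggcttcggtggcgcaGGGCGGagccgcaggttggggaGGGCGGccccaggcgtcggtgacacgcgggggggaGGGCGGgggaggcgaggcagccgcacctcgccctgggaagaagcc
Jup promoter, chr11:100397841-100398040 (GRCm38.p6, minus strand): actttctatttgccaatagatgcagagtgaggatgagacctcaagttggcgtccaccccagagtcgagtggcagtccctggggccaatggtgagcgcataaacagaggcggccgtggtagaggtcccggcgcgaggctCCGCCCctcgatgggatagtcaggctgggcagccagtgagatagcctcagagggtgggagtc
The Dsp window of 250 bases has a GC content of 72.4%, 22 CpG and 4 GC boxes, against medians of 52.4% and 6 CpG over 32851 promoters of the same length, of which 32.7% hold a GC box. The Jup window of 200 bases has a GC content of 60.5%, 10 CpG and 1 GC box, against medians of 51.5% and 4 CpG, and 24.6% of promoters of that length hold a GC box. Both are thus richer in GC and CpG than the median promoter, the Dsp window more so. Neither holds a match to the E-box CAGGTG (17.2% and 14.4% of promoters of the respective length), the AP-1 motif TGANTCA (6.7% and 5.6%), the Grainyhead-like motif AACCNGTT (1.8% and 1.4%) or the TATA box TATAAA (12.4% and 9.1%), each searched on both strands.

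With the brightest probe of each gene, 8 of the 10 genes could be tested, which asks that all 3 arrays of a population read the probe well above background. Of these, 6 had the higher mean in LSC GFP+ and 2 in LSC GFP- cells, with a median difference of 0.31, whereas the median over all probes was -0.004 and 49.4% of probes were above 0. Differences above 1 were found for 2 genes, Dsc3 and Pkp1, against 0.903% of all probes. LSC GFP+ samples lay above LSC GFP- samples without overlap for 3 genes, Dsc3, Pkp1 and Dsc2, and this held for 6.61% of all probes. The same 3 genes were under an unadjusted p of 0.05 in the limma fit, as were 7.9% of all probes, and none passed after adjustment, as did 1 probe of all (0.0027%). With the replicate number as a block, Dsg2 and Dsc1 joined them, 5 of 8 in all, and 14.8% of all probes passed. Because the genes were picked from this contrast, nothing is read from these counts.

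Samples of one population also differed among themselves, which the choice of genes did not use. Each value was set against the mean of its population, and these deviations were correlated over the 6 arrays for all 28 pairs of the 8 genes, as a description. Dsc2, Dsp and Jup deviated together, with r = 0.92 for Dsc2 and Dsp, 0.87 for Dsp and Jup and 0.85 for Dsc2 and Jup. At the brightest probe of all 3 genes the lowest LSC GFP+ sample was replicate 1 and the highest LSC GFP- sample was replicate 3. The other Dsp probe did not follow this, with LSC GFP+ replicate 1 the highest (1.94). Its LSC GFP- replicates 1, 2 and 3 were nearly equal (1.03, 1.02 and 0.99), so no order is read from them. The shared deviation of Dsp with Dsc2 and Jup thus holds for its brighter probe only. At their brightest probes Dsc1 and Dsg2 formed another pair (r = 0.84), with replicate 3 the lowest in both populations. The other tested Dsg2 probe had LSC GFP+ replicate 1 the lowest (-0.23) and LSC GFP- replicate 3 the highest (-0.32). The low replicate 3 that Dsg2 shared with Dsc1 thus holds for the brightest Dsg2 probe only. At the brightest probes these genes ran against Jup, with r = -0.86 for Dsg2 and Jup and -0.76 for Dsc1 and Jup. For Dsg2 this too rests on 1 probe. Its other tested probe had the same lowest LSC GFP+ and highest LSC GFP- sample as Jup. Dsc3 and Pkp1, the genes with the largest differences between the populations, had r = 0.22 with each other. The median over the 28 pairs was 0.17, with 18 pairs positive, so the 8 genes did not vary as 1 block. All genes were read from the same 6 arrays and share their scaling, and the median was 0.44 when arrays were scaled by their median and -0.29 without LSC GFP+ replicate 2. Luminal markers had mean deviations of -0.30, -0.03 and 0.33 in LSC GFP+ and -0.17, -0.13 and 0.30 in LSC GFP- replicates 1, 2 and 3, again lowest in replicate 1 and highest in replicate 3. The keratin list, which shares genes with it, had -0.17, -0.05 and 0.22 and -0.13, -0.09 and 0.22, and the basal markers -0.14, 0.06 and 0.08 and -0.005, -0.09 and 0.10, both lowest in LSC GFP+ replicate 1 and highest in replicate 3 of each population. The part of these lists in the shared deviations of Dsc2, Dsp and Jup was not tested.

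**Figure D4:**
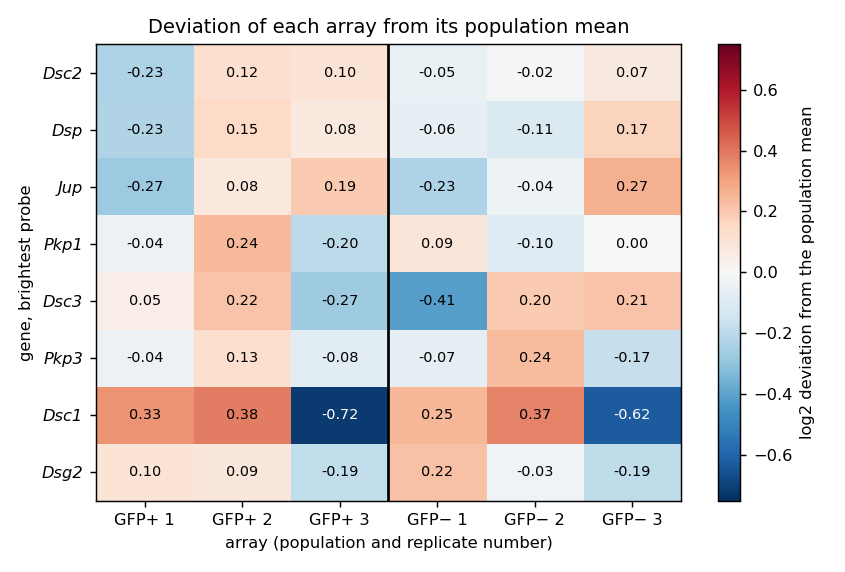
Deviation of each array from the mean of its population (log2 units, colour and printed value) for the 8 measured desmosome genes, at the brightest probe of each. Columns are the 3 LSC GFP+ and 3 LSC GFP- arrays. Dsc2, Dsp and Jup are low in LSC GFP+ replicate 1 and high in LSC GFP- replicate 3, and Dsc1 and Dsg2 are low in both replicates 3.

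Other genes of the desmosome were taken from a list of 10, of which 7 were tested. At an unadjusted p under 0.05, 1 was higher, 1 was lower and 5 passed in neither direction, and the median difference was 0.02. When all 6 arrays had to be above background, 6 were tested, with 0 higher and 1 lower by limma. Dsg1c, a copy of desmoglein 1 next to Dsg1a, read -1.57, -2.65 and -3.14 in LSC GFP+ and -4.45, -3.59 and -4.69 in LSC GFP- replicates 1, 2 and 3. All LSC GFP+ samples were higher, but 1 of the 3 LSC GFP- samples was above background, so the probe entered the comparison through the population where it was high. The measured difference of 1.79 was 0.65 with normexp background correction, and its size is not read further. The design lists a Dsg1b transcript for this probe too, so the signal cannot be given to 1 of the copies. The probe of Dsg1b itself was above background in 2 samples of each population, and its pair differences of 2.53, 0.66 and -2.07 had no common direction.

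Pkp2, the plakophilin of simple epithelia and heart, read -2.72, -2.67 and -2.15 in LSC GFP+ and -1.76, -2.03 and -1.62 in LSC GFP- replicates 1, 2 and 3. Every LSC GFP+ sample was below every LSC GFP- sample. The difference was -0.71 ± 0.23 (SE, limma unadjusted p = 0.0168, adjusted p = 0.42). It stayed negative but missed the unadjusted threshold when arrays were scaled by their median (-0.64, limma unadjusted p = 0.0525), and it also missed it when LSC GFP+ replicate 2 was left out (-0.63), and the same was true of LSC GFP- replicates 1 (-0.69) and 3 (-0.61). Across the plakophilins of desmosomes, the arrays thus gave differences of 1.65 for Pkp1, -0.71 for Pkp2 and -0.08 for Pkp3. With normexp background correction these were 1.52, -0.38 and -0.09, so the size of the Pkp2 difference depends on the background correction. Pkp4, a relative found at adherens junctions, differed by 0.20 ± 0.21. Perp, a membrane protein that stratified epithelia need for their desmosomes, differed by 0.38 ± 0.25, and passed only without LSC GFP+ replicate 1 (0.57, limma unadjusted p = 0.0498). The plakins Ppl and Evpl and the periplakin-binding Kazn differed by -0.07, 0.02 and -0.34, and Dsg4 and Cdsn, of hair and cornified layers, were below background on all 6 arrays.

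Keratins, the filaments held by desmoplakin, were all measured, 11 of 11. The basal keratins Krt17, Krt14, Krt5 and Krt15 passed at the same threshold and were higher in LSC GFP+ cells, by 1.40, 1.18, 0.70 and 0.52, and none fell. The keratins of simple and luminal epithelium, Krt8, Krt18 and Krt19, differed by -0.30, -0.22 and -0.24 and did not pass. The median over the list was 0.31, but 0.01 with normexp background correction and 0.04 when the probes of each gene were averaged. Without LSC GFP+ replicate 2 there were 2 keratins past the threshold, and there were 2 as well if the array dropped was the third of LSC GFP+ or the second of LSC GFP-. These 4 basal keratins are also among the 9 basal markers above.

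Hemidesmosomes fasten basal cells to the basement membrane and hold keratins from below. Of 9 genes, 3 rose and none fell, namely Col17a1 (1.09), a collagen that spans the membrane, and Lamb3 (0.88) and Lama3 (0.71), chains of the laminin to which it is bound. The integrin genes Itga6 and Itgb4 differed by 0.25 and 0.13 and did not pass, and the median was 0.25. Col17a1, Lamb3 and Itgb4 are also among the basal markers above. In adherens junctions, which join cells through actin, 1 of 10 genes rose, Cdh3 (0.76), the P-cadherin of basal cells, and none fell, with a median of 0.06. With the replicate number as a block 4 of the 10 passed, 3 higher and 1 lower, beside 6.74% of all probes higher and 8.07% lower in that fit. Without the block, 2 or 3 passed when LSC GFP+ replicate 3 or LSC GFP- replicate 2, respectively, was left out. Cdh1, or E-cadherin, differed by 0.22, and the catenins Ctnnb1, Ctnna1 and Ctnnd1 by 0.36, 0.03 and -0.02. Cdh2, or N-cadherin, read -0.12, -0.18 and -0.44 in LSC GFP+ and 1.31, -0.02 and 0.28 in LSC GFP- replicates 1, 2 and 3, lower without overlap, and missed the threshold (-0.77, limma unadjusted p = 0.0555).

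Among 13 transcription factors of stratified epithelium or of its loss, 12 were tested, of which 3 rose, 2 fell and 7 did not pass. Snai2 (0.88), Klf4 (0.83) and Ovol1 (0.58) rose. Zeb1 (-1.49) and Zeb2, repressors of epithelial adhesion genes that are also expressed in mesenchymal cells, fell beside the stromal and smooth muscle markers given above, whose part in them was not tested. Zeb2 was above background in 2 of 3 LSC GFP+ samples and entered the comparison through LSC GFP- cells, and with all 6 arrays required 1 factor, Zeb1, was lower. Trp63, the basal regulator p63, had 3 tested probes that disagreed, with differences of 0.11 ± 0.18 at the brightest and 0.62 ± 0.19 and -0.73 ± 0.36 (SE) at the others, of which the probe at 0.62 passed the unadjusted threshold. Grhl1, Grhl2 and Grhl3, activators of epithelial junction genes, differed by 0.16, 0.24 and 0.30, none past the threshold. Snai1 was below background. When LSC GFP- replicate 1 was left out, 3 of the 12 passed. The median of the list was 0.13. After adjustment over all probes no gene of these lists passed. The shares to set beside them are 3.38% of all probes higher and 4.53% lower at the unadjusted threshold. All of these lists were chosen with earlier results of these data known, so their counts are a description.

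**Figure D5:**
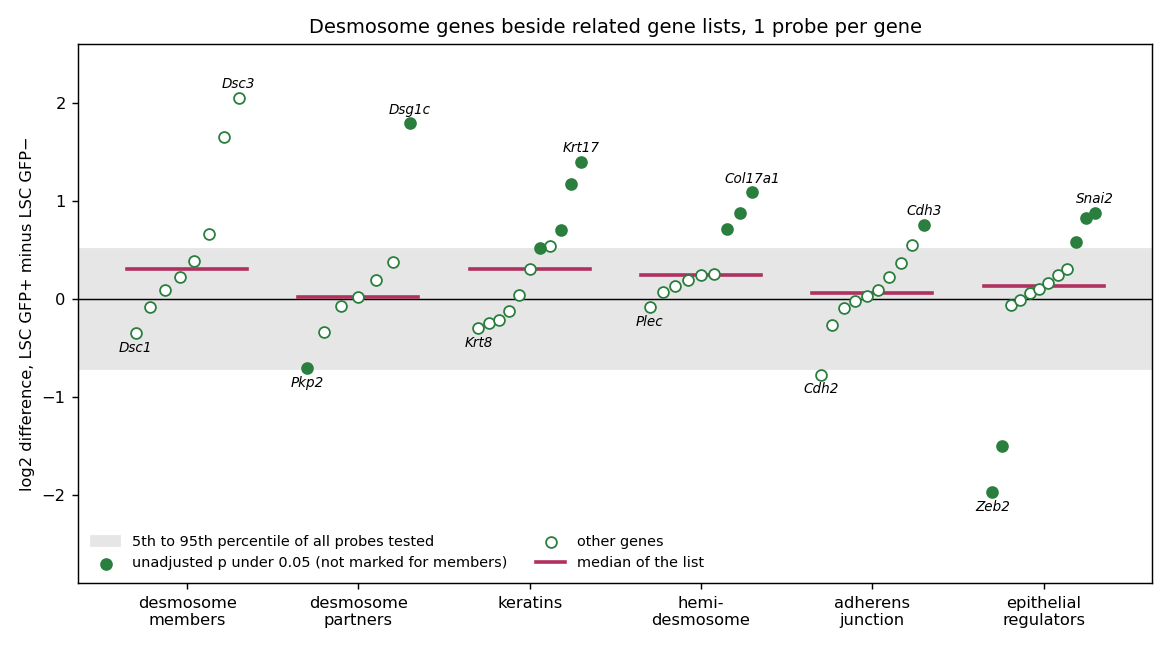
Log2 difference between LSC GFP+ and LSC GFP- cells for the tested genes of each list, 1 probe per gene in order of the difference. Filled symbols have an unadjusted limma p under 0.05 (not marked for the desmosome genes, which were picked from this contrast). The other lists were also chosen with earlier results of these data known, so filled symbols are a description. Red lines are list medians and the grey band is the 5th to 95th percentile of all probes tested. Among the genes above the band are Dsc3, Pkp1, Dsc2, Dsg1c (above background in 1 of 3 LSC GFP- samples) and the basal keratins. Col17a1, Lamb3, Lama3, Cdh3, Snai2, Klf4 and Ovol1 are also above it. Zeb2 (above background in 2 of 3 LSC GFP+ samples), Zeb1 and Cdh2 lie below the band, and Pkp2 lies just inside its lower edge.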

How the data were processed

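RNA of 3 LSC GFP+ and 3 LSC GFP- samples was amplified, labelled with Cy3 and hybridised to SurePrint G3 Mouse arrays, which share 1 slide and scan. Per the file headers, the deposited signals are linear intensity values from Feature Extraction 11.0.1.1 (10.7.3.1 in the submitters' processing notes), background-subtracted and detrended, with surrogates for dim spots, and not normalized between arrays. From these deposited intensities, log2 values minus the 75th percentile of each array were computed, 123 to 154 outlier spots per array were dropped and spots of a probe averaged. No spot was saturated, and 36651 to 42123 probes per array were well above background. The 37005 probes that every array of at least one population read well above background were tested with lmFit and eBayes (limma 3.58.1, R 4.3.3), two-sided, with Benjamini-Hochberg adjustment, and the code was tested on simulated data. The number of arrays limits precision, since an exact permutation test of 3 against 3 cannot give p below 0.1. A gene is represented by its brightest tested probe. The members and all gene lists were chosen with earlier results of these data known, and the genes named come from these lists, the sorting markers and Gapdh. One gene of the luminal list is not reported here. The replicate numbers in the labels were taken to pair samples, because deviations of same-numbered samples correlated at 0.43, 0.28 and 0.67 for replicates 1, 2 and 3. Differently numbered samples gave -0.55 to 0.22. Deviations cancel out within a population, so these values are not independent of the same-numbered ones. Alternatives were normexp (offset 50), quantile normalization, median scaling, the series value table (the same signals rounded), other filters, kept outlier spots, the mean over probes, the methods' t-test (Student's, with no correction named), an intensity trend, the replicate block and each array left out. Positions are in mm9 as the design gives them, and gene names and promoters came from RefSeq tables of GRCm38.p6.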

Additional observations from a re-analysis of the deposited data

How the results depend on the processing

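Over all alternatives, the differences of Dsc3 (1.67 to 2.18), Pkp1 (1.52 to 1.75), Dsc2 (0.60 to 0.78), Dsg2 (0.29 to 0.50) and Dsp (0.15 to 0.37) kept their sign. Those of Jup, Pkp3 and Dsc1 changed sign when 1 array was left out. These fits kept the same-numbered partner of that array and did not use the pairs. Within pairs, Dsc1 differed by -0.27, -0.34 and -0.44. The pair differences were 0.05, 0.21 and 0.02 for Jup and -0.05, -0.19 and 0.01 for Pkp3. The median of the desmosome genes was 0.16 without a filter on dim probes, when Dsg1a and Dsg3 enter, and 0.25 to 0.35 with 1 array left out. With the replicate block, 5480 probes passed the unadjusted threshold against 2925 without it, and 2077 to 4049 with 1 array left out. Of the partners 1 passed with median scaling (Dsg1c) and 1 when probes had to be above background on all 6 arrays (Pkp2), and 1 to 3 with 1 array left out. Of the adherens junction genes 4 passed with normexp, 2 with quantile normalization, 2 with median scaling, 3 with the filter on all 6 arrays, 2 with the methods' t-test, 3 with an intensity trend, 4 with the replicate block and 1 to 3 with 1 array left out. Keratins gave 2 to 5, hemidesmosome genes 3 and epithelial regulators 3 to 5 with 1 array left out, and the block changed none of these by more than 1.5 times. The median correlation of deviations was 0.44 with median scaling and -0.29 to 0.26 with 1 array left out, negative without LSC GFP+ replicate 2. Probes higher and lower numbered 1250 and 1675, but 1471 and 1299 with median scaling, 1646 and 1592 with quantile normalization and 1579 and 1219 with the methods' t-test. The cause of these shifts was not tested. Genes below background carry no fold change, and a group of 3 samples is too small to call 1 of them an outlier.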
